A study of Mus musculus with 563 samples.

Results

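Mitosis and kinetochore genes were followed through single hematopoietic stem cells of young and old mice. The 50 members are a list of named genes, chosen by function and not by a measured value, though with earlier results of these data known. All 50 were found in both deposited count tables and passed the level filter (an average of 10 or more counts per 1000000 across groups, with reads in 10% or more of the kept cells). They are 50 of 46041 nuclear gene entries, 10721 of which passed that filter. The list holds cyclins and kinases, the spindle checkpoint, the kinetochore, the passenger complex, anaphase control, kinesin motors, spindle assembly, cytokinesis and chromosome structure.

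Each deposited sample is 1 bone marrow cell of the Gfp-Lc3 genotype, labelled as a hematopoietic stem cell isolated at steady state. Gfp-Lc3 is a transgene that fuses green fluorescent protein to LC3, which sits on autophagosome membranes, and the cells of all groups carry it. The old cells were labelled oHSC_HI, oHSC_MID and oHSC_LO (HI, MID and LO below) and the young cells yHSC. The first and the second count table held 71 and 65 HI cells, 72 and 72 MID cells, 72 and 72 LO cells, and 68 and 71 young cells. The series text gives index sorting with recorded surface markers and reporter level, but no label says what HI, MID and LO rank, and ages are given only as old and young. No label names an animal or a driver of the transgene, so each group counts as 1 sample, differences between groups were not tested, and all intervals cover counting error only.

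Cells enter mitosis when cyclin B and the kinase Cdk1 become active together, which condenses chromosomes and builds the spindle. Kinetochores, protein plates on the centromeres, then bind spindle fibres, and a checkpoint holds the anaphase-promoting complex back until each chromosome is attached. Many of these genes are transcribed mainly in the G2 and M phases of the cycle, and most hematopoietic stem cells of a mouse are quiescent at any time.

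Of 563 cells, 533 were kept, with 50339 to 1064879 reads in nuclear genes. By table these were 68 and 61 HI, 68 and 66 MID, 65 and 71 LO, and 63 and 71 young cells. Median depth was 340529 reads in HI cells, 254723 in MID, 257240 in LO and 271443 in young cells, so shares of cells are given after each cell was thinned to 100000 reads, which kept 501 cells. All 10 listed stem cell markers, among them Procr, Hlf, Mecom and Kit, had reads in every group and together reached 3147 to 4068 CPM in each group and table. The 10 listed progenitor markers reached 512 and 601 CPM in HI, 612 and 425 in MID, 501 and 451 in LO, and 687 and 790 in young cells. The 24 markers of mature blood cells reached 79.98 to 108.9 CPM together, and Prss34, a basophil protease, was at 0 in every group. Averaged over the tables, Gp9 of that list was alone at 69.7 CPM in HI, 63.2 in MID, 70.6 in LO and 64.2 in young cells. The median of transgene eGFP reads per 1000000 nuclear gene reads was 688 in HI, 607 in MID, 271 in LO and 679 in young cells. Levels below are counts per 1000000 nuclear gene reads (CPM) of a group's pooled kept cells, and wherever 2 values stand together they are the first and the second count table.

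Members of the set were far more abundant in HI cells than in the other old groups. Their reads together made up 3486 and 7736 CPM in HI cells, against 1461 and 1388 in MID cells, 1670 and 1391 in LO cells, and 3117 and 3961 in young cells. HI cells stood above MID and LO cells in both tables, whereas HI and young cells did not keep a wide distance in the first table. The LO value of the first table came mainly from 1 cell: the LO cell numbered 58 held 19010 of 31021 member reads (61.3%), and without it the LO cells of that table were at 672 CPM. That cell had 699953 nuclear reads and 10816 genes. The heat map of levels shows the pattern member by member.

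**Figure D1:**
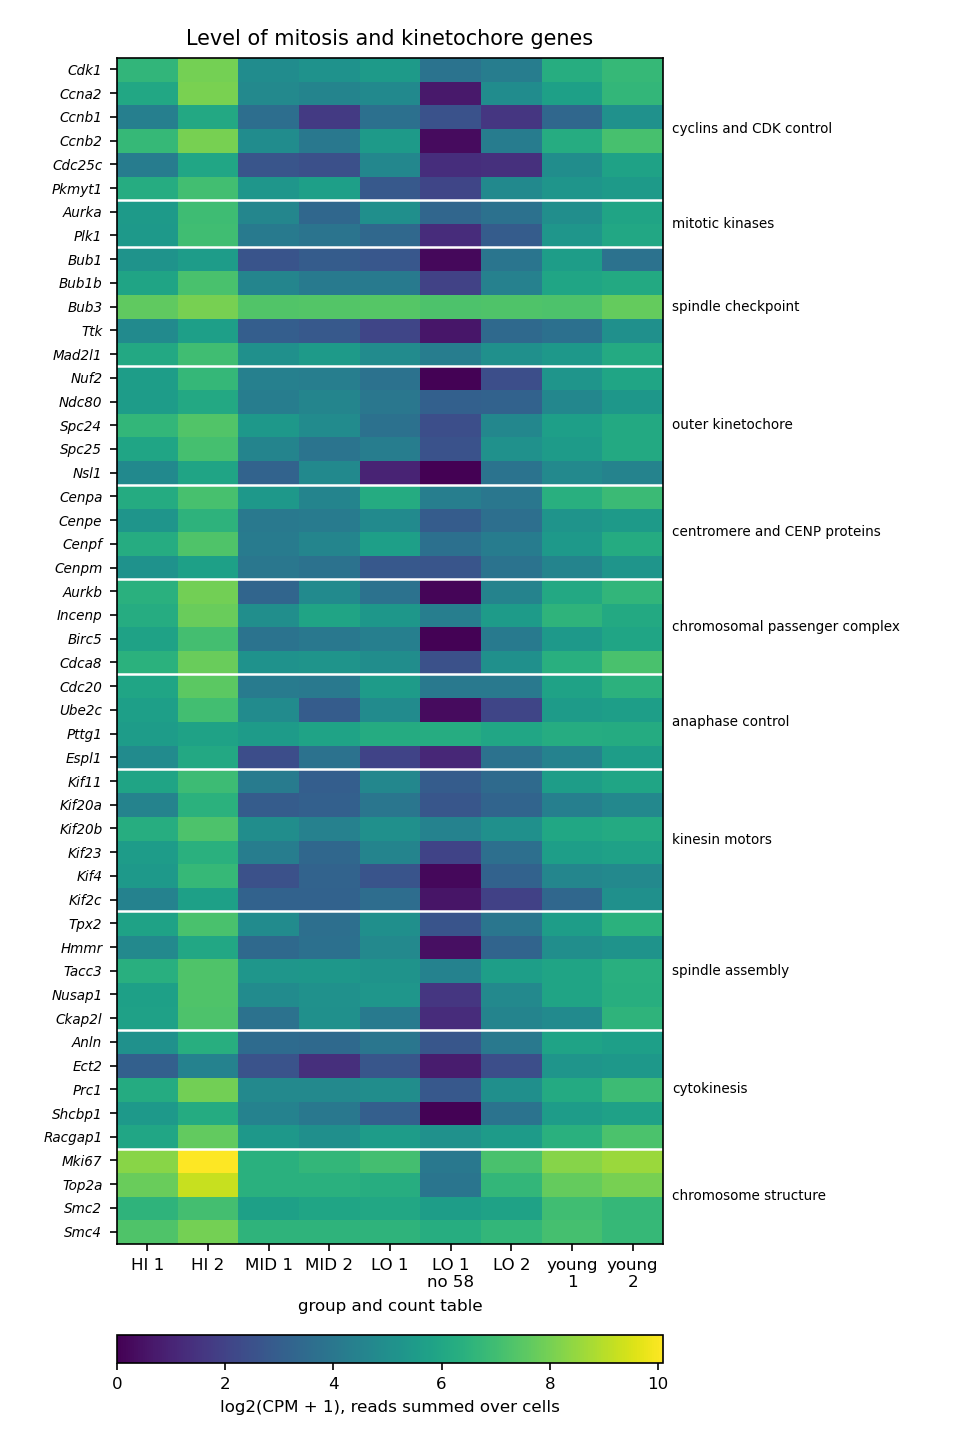
Level of each of the 50 members as log2(CPM + 1), with the kept cells' reads pooled within each group (HI, MID, LO, young) and count table (1 or 2); the sixth column leaves out the LO cell numbered 58. Rows are ordered by role. Most rows are brightest in HI cells of the second table and darkest in LO cells of the first table without cell 58, while Bub3 and Pttg1 are nearly even across columns.

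The first comparison sets HI against LO cells of old mice. Differences are those of log2(CPM + 1), averaged over the tables, a scale that understates changes of low levels. The median HI minus LO difference of the 50 members was 2.06 (1.21 and 2.73), beside 0.02 for all 10721 genes, and 49 members were above 0. Without the LO cell numbered 58 the median was 3.22 (3.43 and 2.74), beside 0.05 for all genes. A difference is called large where its mean over the tables is at least 1 in size on the log2 scale, and where both tables give 0.58 or more in the same direction. In this sense 36 members were higher in HI cells with all cells (2.94% of all genes tested were) and 48 without that cell (3.52%). The stricter size rule also asks for at least 20 CPM and a read in at least 20% of cells of the higher group in each table. In neither table may 1 cell hold over 20% of that group's reads. The rule passes no pseudogene and no gene with only a provisional name, though these stay among the 10721 genes. It was met by 23 members (1.59% of all genes) and without cell 58 by 25 (1.88%), all of them higher in HI cells. Without the 81 kept cells that held at least 3 of the mature blood cell markers, cell 58 among them, 7 members met it (6 of the 23) and the median was 3.41, and without the 3 HI cells per table richest in member reads 10 met it (9 of the 23). No other cell of either group moved the median outside 1.97 to 2.28 when left out. Cell 58 moved 16 of the 36 large differences by over 1.5 times, 10 of them among the 23. Without it Nuf2 was at 4.93, Aurkb at 4.87, Birc5 at 4.34, Ccna2 at 4.28, Shcbp1 at 3.89, Ckap2l at 3.62, Cdca8 at 3.34, Bub1 at 3.33, Top2a at 3.24 and Kif23 at 3.15. The others were Ube2c at 5.19, Ccnb2 at 5.15, Kif2c at 3.85, Mki67 at 3.61, Tpx2 at 3.23 and Prc1 at 3.196. The 13 large members that did not meet the size rule each had over 20% of the HI reads of a table in 1 cell.

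**Figure D2:**
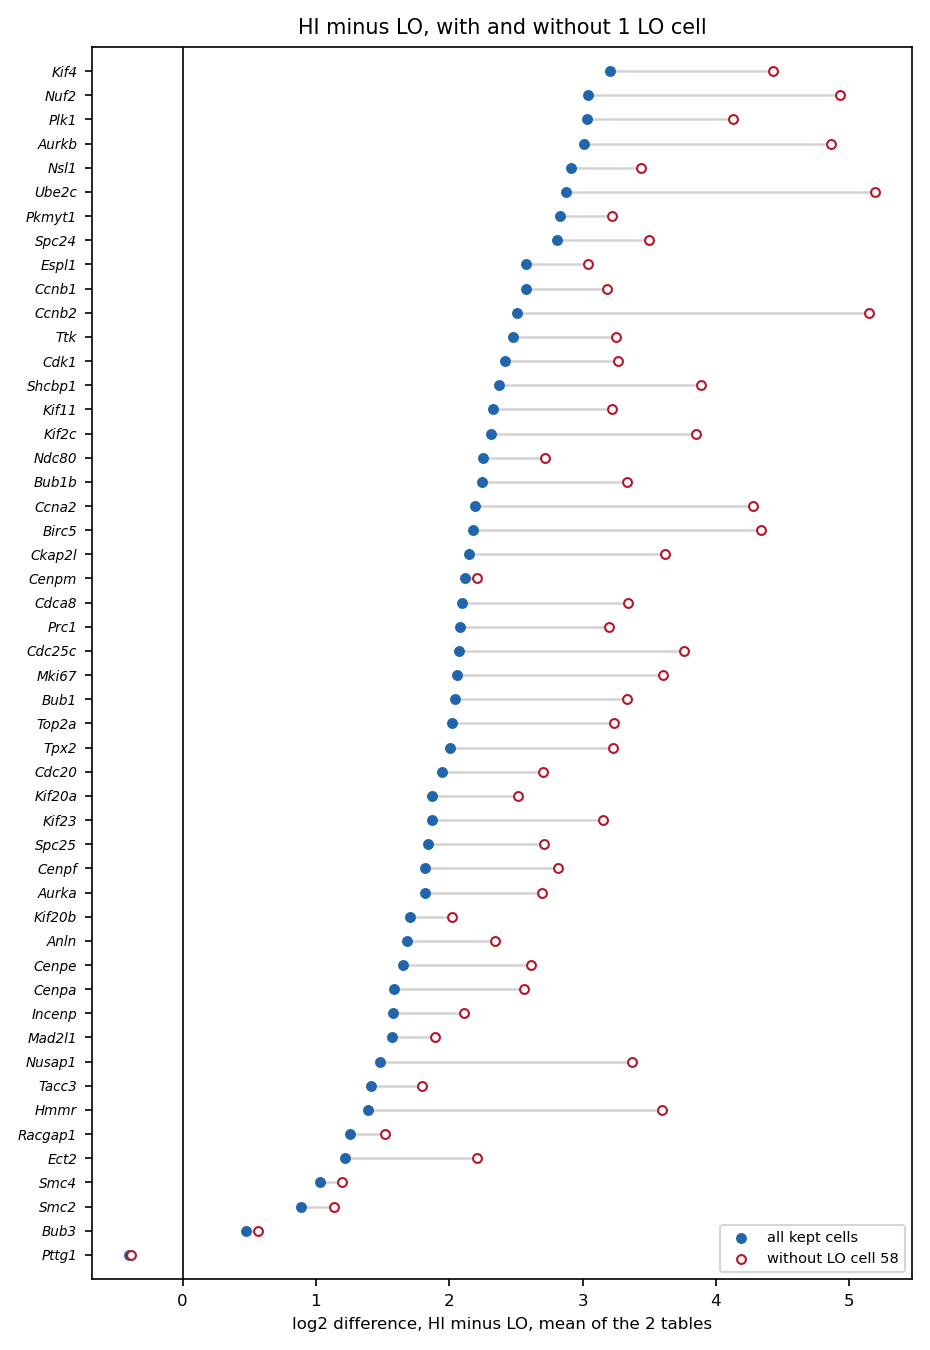
Log2 difference of each member between HI and LO cells, as the mean of the 2 count tables, for all kept cells (filled) and without the LO cell numbered 58 (open). With all cells the values run from -0.40 for Pttg1 to 3.21 for Kif4, and without that cell Ube2c and Ccnb2 come to the top at 5.19 and 5.15.

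Cyclins and their kinase had higher levels in HI than in LO cells, though Ccnb1, Ccnb2 and Cdc25c did not meet the size rule. Cdk1, the kinase that drives entry into mitosis, was at 98.9 and 249 CPM in HI cells, 29.3 and 34.1 in MID, 43.8 and 18.6 in LO, and 77.4 and 107.4 in young cells. Ccnb2, a B-type cyclin that activates it, was at 106.1 and 258 CPM in HI cells, 29.4 and 15.3 in MID, 44.7 and 17.7 in LO, and 74.04 and 142.4 in young cells. HI cells were the highest group in both tables for both genes, and MID and LO cells were the lower groups. Cell 58 held 849 reads of Ccnb2, which were 99.5% of the LO reads of the first table, and without it LO cells there were at 0.22 CPM. Pkmyt1, a kinase that holds Cdk1 inactive, was at 75.1 and 129.7 CPM in HI, 38.3 and 50.6 in MID, 6.08 and 26.8 in LO, and 37.7 and 44.03 in young cells. Cell 58 held 48.3% of its LO reads of the first table, without which LO cells there were at 3.26 CPM. Over the 6 members of this role, which also include Ccna2, Ccnb1 and the phosphatase Cdc25c, the HI minus LO differences ran from 2.07 to 2.83, 5 were large, and Cdk1, Ccna2 and Pkmyt1 met the size rule. Cdc25c was not large, with -0.43 in the first table and 4.57 in the second.

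Both mitotic kinases had higher summed levels in HI than in LO cells. Plk1 was read in 26.8% and Aurka in 27.6% of thinned HI cells, beside 29.3% for Ccnb2, Birc5 and Aurkb. Plk1, polo-like kinase 1, was at 41.9 and 126.8 CPM in HI cells, 16.5 and 13.9 in MID, 9.65 and 6.67 in LO, and 38.9 and 64.8 in young cells, and the HI minus LO difference was 3.03. Aurka, the kinase of spindle poles, differed by 1.82, but LO cells reached 31.8 CPM in the first table, where cell 58 held 72.6% of the reads. Neither met the size rule. For Plk1 1 HI cell held 28.7% of a table's reads, and the difference of Aurka was not large, since it was below 0.58 in the first table.

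Among checkpoint genes, Bub1b, which encodes BubR1, was at 57.98 and 145 CPM in HI cells, 23.02 and 16.7 in MID, 16.5 and 20.9 in LO, and 60.4 and 69.6 in young cells. Bub1, Ttk and Mad2l1, whose products signal unattached kinetochores, differed by 2.04, 2.48 and 1.57 between HI and LO cells. Bub1, Bub1b and Mad2l1 met the size rule. Bub3, which also serves outside the checkpoint, set itself apart with 198 and 259.7 CPM in HI, 162 and 169 in MID, 169.6 and 157 in LO, and 155 and 210.1 in young cells. Its difference of 0.47 was not large, and it was read in 82.1% of HI cells and 77.2%, 78.05% and 70.3% of MID, LO and young cells.

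The outer kinetochore, whose Ndc80 complex grips spindle fibres, had a median difference of 2.81, the highest of the roles with all cells. Without cell 58 it was 3.44, below the passenger complex at 3.84 and the cyclin group at 3.51. Nuf2, a subunit of that complex, was at 47.7 and 103.4 CPM in HI cells, 20.02 and 18.9 in MID, 13.1 and 4.33 in LO, and 37.8 and 60.9 in young cells. Its partner Spc24 was at 101.7 and 164 CPM in HI cells, 40.5 and 28.6 in MID, 12.4 and 24.8 in LO, and 51.3 and 69.5 in young cells. For both genes HI was the highest and LO the lowest group in each table. All 5 members (Nuf2, Ndc80, Spc24, Spc25 and Nsl1, a subunit of the Mis12 complex) were large, and Nuf2, Spc24 and Nsl1 met the size rule. Cell 58 held 249 of the Nuf2 reads in LO cells of the first table (99.6%) and all 19 reads of Nsl1.

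Centromere proteins differed less evenly. Cenpa, the centromeric histone H3 variant, was at 72.55 and 142.1 CPM in HI cells, 40.2 and 22.5 in MID, 73 and 14.8 in LO, and 82.6 and 116.9 in young cells. The groups overlapped in the first table, where cell 58 held 75.1% of LO reads, and the difference was 1.58 with all cells and 2.56 without that cell. Cenpe, a kinesin of the kinetochore, and Cenpf behaved alike at 1.65 and 1.82. Cenpm, a subunit of the inner kinetochore, was the single member of this role that met the size rule, at 2.12, and moved little without cell 58, to 2.21.

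The chromosomal passenger complex corrects faulty attachments and guides cytokinesis, and its 4 members all met the size rule. Aurkb, its kinase, was at 84.4 and 243 CPM in HI cells, 8.90 and 27.2 in MID, 13.1 and 21.9 in LO, and 67.4 and 98.3 in young cells. Birc5, or survivin, was at 54.6 and 134.5 CPM in HI cells, 13.5 and 15.5 in MID, 19.4 and 17.1 in LO, and 43.1 and 59.6 in young cells. Both were above MID and LO in each table and above young cells mainly in the second. Cdca8, or borealin, differed by 2.10 between HI and LO cells, and Incenp, the scaffold, by 1.58. Incenp was also read in many other cells, in 60.2% of HI and 42.5%, 39.02% and 40.6% of MID, LO and young cells.

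Anaphase genes held the widest range. Cdc20, an activator of the anaphase-promoting complex, was at 59.9 and 188 CPM in HI cells, 17.2 and 15.7 in MID, 45.4 and 15.8 in LO, and 55.6 and 88.1 in young cells. Ube2c, the ubiquitin-conjugating enzyme of that complex, was at 50.2 and 130.8 CPM in HI cells, 28.5 and 6.71 in MID, 28.3 and 3.28 in LO, and 45.9 and 49.6 in young cells. Espl1, the protease separase that cuts cohesin, differed by 2.58 and met the size rule. Pttg1, or securin, which restrains separase, was at 46.8 and 55.5 CPM in HI cells, 45.4 and 56.6 in MID, 73.4 and 62.3 in LO, and 75.1 and 73.1 in young cells. It was the only member below 0 in HI against LO cells, at -0.40, which is not large, and HI cells were below LO and young cells in both tables.

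All 6 kinesin motors were at higher levels in HI than in LO cells. Kif4, a chromosome kinesin, was at 42.7 and 107.03 CPM in HI cells, 4.66 and 8.37 in MID, 5.14 and 8.01 in LO, and 23.8 and 25.6 in young cells, the highest difference of any member with all cells, at 3.21. Kif11, which pushes spindle poles apart, differed by 2.33, and Kif2c, Kif20a, Kif23 and Kif20b by 2.31, 1.87, 1.87 and 1.70. Kif11, Kif20b and Kif23 met the size rule. Kif4 did not, since 1 HI cell held 23.1% of a table's reads.

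Spindle assembly genes had a median difference of 1.48, and of 3.37 without cell 58. Tpx2, which activates Aurora A, was at 55.1 and 145 CPM in HI cells, 27.9 and 11.96 in MID, 31.8 and 14.5 in LO, and 47.7 and 85.8 in young cells. Hmmr, a spindle protein, was at 26.1 and 64.6 CPM in HI cells, 9.83 and 12.2 in MID, 26.3 and 8.46 in LO, and 31.1 and 35.5 in young cells. In the first table the Hmmr levels of HI and LO cells were alike, and 98.8% of those LO reads lay in cell 58, without which LO cells were at 0.33 CPM. Tacc3 and Ckap2l met the size rule at 1.41 and 2.15, and Nusap1 was at 1.48, which was not large. Without cell 58 Nusap1 was at 3.37 and met the size rule, and Hmmr was at 3.60.

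Cytokinesis genes include Ect2, which with all cells had the lowest value of any member against young cells in HI, MID and LO cells. Ect2, the exchange factor that starts the contractile ring, was at 7.52 and 21.1 CPM in HI cells, 4.91 and 1.56 in MID, 5.51 and 4.33 in LO, and 37.4 and 40.8 in young cells. Young cells were above all old groups in each table. Prc1, a bundler of the midzone, and Anln, or anillin, differed by 2.08 and 1.69 between HI and LO cells, and Racgap1, a partner of Ect2, by 1.26. Shcbp1 was the single member of this role that met the size rule, at 2.37.

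Among chromosome structure genes, Mki67, a coat protein of mitotic chromosomes used as a marker of cycling cells, was at 315 and 1091 CPM in HI cells, 84.4 and 101.4 in MID, 134.04 and 146 in LO, and 306 and 379 in young cells. Top2a, the topoisomerase that untangles sister chromatids, was at 217 and 602 CPM in HI cells, 84.4 and 82.7 in MID, 78.2 and 100.4 in LO, and 209 and 259 in young cells. In the first table HI and young cells were close for both genes, and in the second HI cells were far above. Smc2 and Smc4, the core of condensin, differed by 0.89 and 1.03 between HI and LO cells, and Top2a and Smc4 met the size rule.

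Per kilobase of exon, which allows levels to be set beside each other, Ccnb2 was the most abundant member in HI cells at 119.03 CPM per kilobase. Mki67 followed at 69.8, Cdc20 at 66.5, Aurkb at 55.6 and Spc24 at 51.6, and Ect2 was the least abundant at 2.65. Exons of 14 members overlap those of another gene, among them Ccna2 with Exosc9, Pkmyt1 with Paqr4, Kif4 with Pdzd11, Cdc20 with Elovl1 and Nusap1 with Oip5. Ccnb1, Ccnb2 and Kif4 also have a processed pseudogene of their name in the annotation. How reads of shared stretches were assigned is not given in the sources used here, so levels of these genes are less certain.

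HI cells differed from MID cells in much the same way as from LO cells, and both comparisons use the same HI cells. The median member difference was 2.14 (1.30 and 2.76), beside 0.02 for all genes. Large and higher in HI cells were 46 members (2.32% of all genes), and 25 met the size rule (1.03%). The highest values were 3.24 for Kif4, 3.11 for Aurkb and 2.90 for Ccnb2, and the lowest were 0.45 for Bub3 and 0.01 for Pttg1. Pkmyt1 was at 1.15 here and at 2.83 against LO cells, with MID cells above LO cells in each table. Of the 25, only Ccna2 moved by over 1.5 times when a cell was left out, to 3.63 without the MID cell numbered 47 of the first table.

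LO and MID cells had lower levels of the set than young cells. LO minus young had a median of -1.48 (-0.94 and -1.77), beside -0.02 for all genes, and all 50 members were below 0. Large and lower in LO cells were 30 members (2.48% of all genes), and 46 without cell 58 (2.86%), where the median was -2.57 (-3.16 and -1.78). MID minus young had a median of -1.52 (-1.16 and -1.78), beside -0.01 for all genes, and 36 members were large and lower in MID cells (2.23%). By the size rule 0 members were lower in LO cells (0.541% of all genes) and 0 in MID cells (0.392%). For each of the 30 and 36 large members 1 young cell held over 20% of a table's reads. Of these members, 13 and 19 were also read in under 20% of the young cells of a table. The young cell numbered 87 of the second table held 30.1% of that table's member reads, and without it the median was -1.20 for LO and -1.22 for MID cells. The lowest members were Ect2 at -2.77 in LO and -3.36 in MID cells, with Plk1 and Nuf2 both at -2.50 in LO cells and Cdc25c at -2.81 in MID cells (-1.51 without the young cell numbered 83 of the second table). Without cell 58 the lowest in LO cells were Ccnb2 at -4.44, Ube2c at -4.41 and Nuf2 at -4.37, with Ect2 at -3.73 and Plk1 at -3.57. Of young cells in the second table, 71 of 71 had 20 or more Xist reads and 0 had as many Y-linked reads, against 57 of 63 young cells of the first table and most old cells with Y-linked reads. Within the first table alone, where both ages mostly had Y-linked reads, the medians were -0.94 for LO cells, -3.16 for LO cells without cell 58, and -1.16 for MID cells.

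HI cells stood closer to young cells. HI minus young had a median of 0.66 (0.20 and 0.97), beside 0.03 for all genes. Above 0 were 45 members, 36 of them in both tables. Among second-table cells, 20 or more Y-linked reads were found in 57 of 61 HI cells and 0 of 71 young cells. Age and sex-linked reads therefore differed together there, and their parts in the second value were not tested. Within the first table alone, where both groups mostly had Y-linked reads, the median was 0.20. Large and higher in HI cells were Kif4 at 1.42, Pkmyt1 at 1.26 and Spc24 at 1.10 (2.57% of all genes), and Pkmyt1 and Spc24 met the size rule (1.17%). Kif4 lies on the X chromosome and was at 0.82 and 2.02 in the tables. Large and lower was Ect2 alone, at -1.55 (1.86%), which did not meet the size rule (0.709%). Leaving out 3 HI cells per table, those with most member reads, gave a median of 0.07 (-0.37 and 0.35). With the 3 such cells of each group and table left out, young cells included, it was 1.27 (0.67 and 1.82), an alternative chosen after seeing the data. The size of this difference depended on which of these cells were counted.

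Counts per cell show how the sums came about. After thinning, a cell held reads of 1 to 50 of the 50 members, with a median of 9 in HI, 6 in MID, 6 in LO and 8 in young cells. Most cells lay at either end: 414 of 501 cells had 0 to 12 members, 16 had 13 to 19, 24 had 20 to 39, and 47 had 40 to 50. A cut at 8 members, used in earlier work on these data, lies among the many cells at the low end, with 60.2% of HI, 33.9% of MID, 34.1% of LO and 53.1% of young cells at or above it. A cut at 20, chosen after seeing the data, lies where cells were few, and 9 HI, 4 MID, 1 LO and 2 young cells lay between 15 and 25. It was reached by 41 HI cells (33.3%, exact Clopper-Pearson 95% interval 25.1% to 42.4%), 9 MID cells (7.09%, 3.29% to 13.03%), 5 LO cells (4.07%, 1.33% to 9.23%) and 16 young cells (12.5%, 7.32% to 19.5%). By table the shares were 26.2% and 41.4% in HI, 7.69% and 6.45% in MID, 1.75% and 6.06% in LO, and 10.2% and 14.5% in young cells. HI cells were above every other group in each table, and unthinned the shares were 36.4%, 7.46%, 4.41% and 14.2% in the same order. The single LO cell of the first table that reached the cut was number 58; the next highest of its group and table had 17 members, and 0 of the other 56 cells there reached 20, which allows a share of up to 5.36% (3 counts of the total). Of the 71 cells with 20 or more members, 20 held reads of at least 3 of the 24 mature blood cell markers, as did 81 of all kept cells. These markers were counted before thinning, so the count depends on depth. Without the cells with 3 or more markers 30.2% of HI, 5.77% of MID, 2.73% of LO and 11.6% of young cells reached 20 members. After thinning, a median of 1 of the 24 markers was read in cells with 20 or more members and in cells with fewer than 8.

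The cells that reached the cut of 20 held most of the member reads, except in LO cells without cell 58. The cut counts the same members, so part of this follows from the cut itself. Cells with 20 or more members held 92.5% of member reads in HI, 65.6% in MID, 63.1% in LO (45.5% without cell 58) and 82.8% in young cells. From the top down, 10 HI cells, 4 MID cells, 3 LO cells and 5 young cells made up the upper 50% of member reads. The most loaded cell of each group held 9.04% in HI, 18.5% in MID, 32.01% in LO and 18.2% in young cells. Over all kept cells the median cell had 867 member reads per 1000000 in HI, 544 in MID, 570 in LO and 776 in young cells. Among cells with fewer than 8 members the medians were 419.8 in HI, 433 in MID, 461 in LO and 535 in young cells. Among cells with 8 to 19 members they were 849 in HI, 766 in MID, 710 in LO and 878 in young cells. These cells were chosen by counts of the same members, so the medians do not rank the groups.

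Cells with 20 or more members held reads of most stem cell markers and differed from the other cells of their group in some. A median of 7 of 10 stem cell markers was read in such HI cells, against 8 in HI cells with fewer than 8 members. The counts were 6 against 8 in MID, 7 against 8 in LO and 6 against 7 in young cells. Kit, the stem cell factor receptor, was read in each of the 71 cells with 20 or more members, and Hlf in 98.6% of them. Procr, the endothelial protein C receptor used to mark stem cells, was read in 48.8% of such HI cells, against 81.6% of HI cells with fewer than 8 members. It was read in 33.3% against 82.1% in MID, 0% against 86.4% in LO (0 of 5 cells, which allows a share of up to 60%) and 25% against 65% in young cells. Slamf1, the receptor CD150 of the same list, was read in 73.2% of such HI cells against 77.6%, in 77.8% against 64.3% in MID, 80% against 67.9% in LO and 56.2% against 31.7% in young cells. The median number of the 10 progenitor markers read was 2 against 2 in HI, MID and LO cells, and 3 against 2 in young cells. Cd34 of that list was read in larger shares of such cells in every group. It was read in 90.2% against 69.4% in HI, 66.7% against 59.5% in MID, 80% against 46.9% in LO and 100% against 65% in young cells. Flt3 of the same list was mixed. Its shares were 39.02% against 34.7% in HI, 55.6% against 21.4% in MID, 0% against 17.3% in LO (0 of 5 cells) and 25% against 18.3% in young cells. Mpo, a gene of myeloid progenitors, was read in 2.44% of such HI cells, against 8.16%. Nuclear reads per spike-in read, a measure of RNA content, had a median of 107.1 in HI cells with 20 or more members and 54.1 in those with fewer than 8.

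Genes of DNA replication were read in the same cells. Of 32 listed genes, a median of 28 was read in HI cells with 20 or more members, against 10 in HI cells with fewer than 8. The medians were 30 against 9.5 in MID, 25 against 9 in LO, and 24 against 8.5 in young cells. Across cells, the numbers of members and of replication genes read had a Spearman correlation of 0.72 in HI (65 and 58 cells of the tables), 0.44 in MID (65 and 62), 0.31 in LO (57 and 66) and 0.62 in young cells (59 and 69), where both counts also follow the RNA captured from a cell. Cells with 20 to 39 members held a median of 29.5 replication genes and those with 40 or more a median of 25.

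Members were read in the same cells. Over the 1225 pairs, a median of 71.8% of the cells with the rarer member also held the other, where the share of the other member among all cells alone would give 25.2%. In HI cells alone the median was 84.8%, where single shares would give 38.2%. Of 75 cells with Nuf2, 63 held Spc24, and of 65 cells with Birc5, 57 held Cdca8. Of 76 cells with Aurkb, 64 held Incenp, and of 67 cells with Ccnb2, 56 held Cdk1. The lowest share was 41.1%, for Kif23 and Pkmyt1.

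Members differed in how fully they were confined to these cells. Cells with at least 20 of the other members held 99.3% of the thinned reads of Hmmr, 99.1% of those of Kif2c, Birc5 and Kif4, and 98.3% of those of Ccnb2. At the other end were Kif23 with 58.3%, Smc2 with 47.96%, Smc4 with 45.5%, Bub3 with 25.1% and Pttg1 with 8.36%. Pttg1 and Bub3 were also read in cells with few other members. In cells with 0 to 7 other members Pttg1 was read in 55.6% and Bub3 in 73.3%, against 0.73% for Hmmr and 1.09% for Kif2c.

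Cells with 20 to 39 other members, 23 or 24 of them for each gene, read some members nearly always and others hardly at all. Spc24 was read in 100% of them, Mki67, Top2a, Smc2 and Smc4 in 95.7%, Cdk1, Mad2l1, Incenp and Pkmyt1 in 91.3%, and Spc25 in 87.5%. Ube2c was read in 4.35% of these cells, Kif2c in 8.33%, Ccnb1 and Plk1 in 12.5%, Aurka in 13.04%, Kif23 in 16.7%, Cenpa in 17.4% and Cdc25c in 20.8%. In the 47 cells with 40 or more other members these 8 genes were read in 74.5% (Cdc25c) to 100% (Kif23). Pkmyt1 was read in 87.2% of those 47 cells, close to its 91.3% in the cells with 20 to 39 others. The fullest cells, with 40 to 50 members, were 29 HI, 4 MID, 3 LO and 11 young cells, and the cells with 20 to 39 were 12, 5, 2 and 5.

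**Figure D3:**
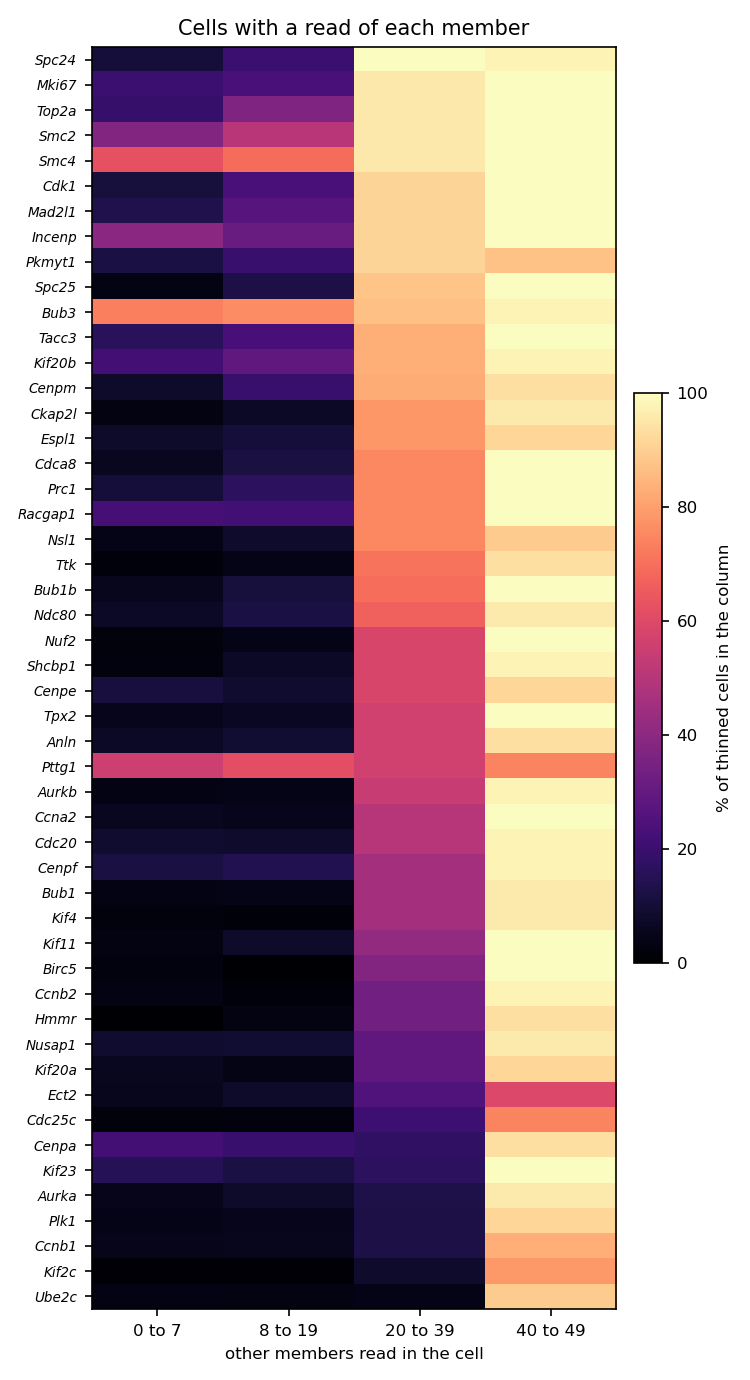
Share of thinned cells with a read of each member, by how many of the other 49 members were read in the cell. Rows are ordered by the third column, which holds 23 or 24 cells, and the fourth holds 47. Spc24, Mki67 and Top2a are at 95.7% to 100% already in the third column, while Ube2c, Kif2c, Ccnb1 and Plk1 lie between 4.35% and 12.5% there and above 78% in the fourth.

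Most of the promoters found for the set held a common sequence feature. Many G2 and M phase genes carry a cell cycle genes homology region (CHR, letters TTTGAA) near their start, which is bound by MuvB complexes, with CCAAT boxes, bound by NF-Y, upstream of it. RefSeq promoter windows on GRCm38.p6, from 250 bases before to 50 after a gene start, were found for 39 of the 50 members, in 42 windows. Both motifs were searched on both strands. A CHR was found in 76.2% of member windows, against 11.7% of windows of other genes above the level filter and 17.9% of all windows. Together with the variant TTCGAA the shares were 80.95%, 13.7% and 19.2%. A CCAAT was found in 76.2% of member windows, 37.5% of those of other genes and 37.4% of all. Both kinds together were found in 71.4%, 5.40% and 7.52% of windows, and in 1 place a CHR and a CCAAT overlapped. Counted from the start, with bases before it negative, the first base of a CHR lay at a median of 2 in members and -138.5 in other genes. A CCAAT lay at a median of -71 in members and -87 in other genes.

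**Figure D4:**
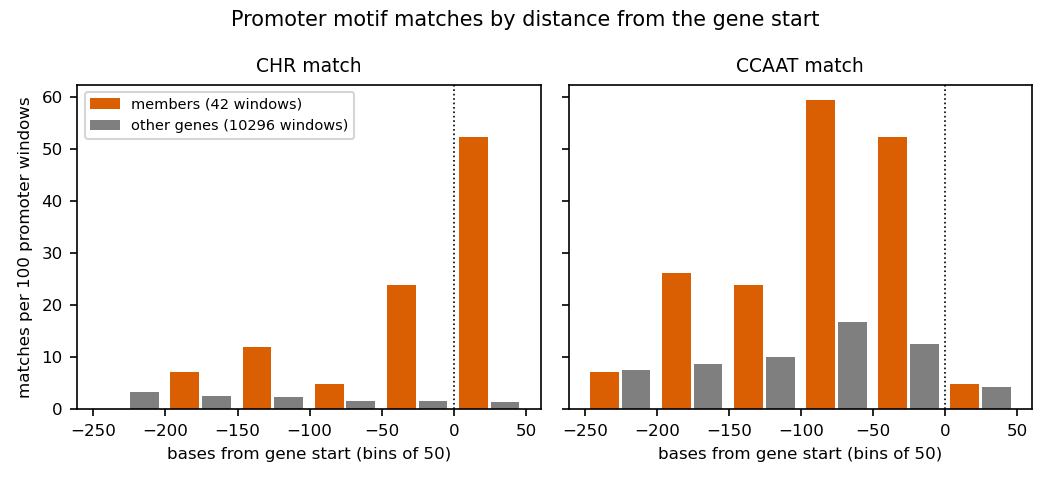
Matches of the CHR (left) and of CCAAT (right) per 100 promoter windows, in bins of 50 bases of distance from the gene start, for members (42 windows) and for other genes above the level filter (10296 windows). CHR matches of members gather in the 50 bases from the start on, with 52.4 per 100 windows, and CCAAT matches in the 100 bases before it.

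Stretches of 6 windows are printed to show where the matches lie: those of Cdk1 and its cyclin Ccnb2, of Kif4 and Hmmr, which were confined to few cells, and of Nuf2 and Pttg1, which had no match. Kif2c and Birc5 were confined as closely as Kif4, and Birc5 had no match of either kind. Each is 200 bases long, from 171 bases before the start to 28 after it, in the direction of the gene, with CHR and CCAAT matches of either strand in capitals. Cdk1 lies at chr10:69352884-69353083 (minus strand), Ccnb2 at chr9:70421526-70421725 (minus), Kif4 at chrX:100625894-100626093 (plus), Hmmr at chr11:40733409-40733608 (minus), Nuf2 at chr1:169531436-169531635 (minus) and Pttg1 at chr11:43425953-43426152 (minus).
Cdk1: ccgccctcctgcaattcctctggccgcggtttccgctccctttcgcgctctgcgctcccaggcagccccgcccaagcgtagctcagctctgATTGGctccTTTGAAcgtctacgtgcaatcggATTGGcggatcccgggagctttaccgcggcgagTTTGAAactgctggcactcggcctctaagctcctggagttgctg
Ccnb2: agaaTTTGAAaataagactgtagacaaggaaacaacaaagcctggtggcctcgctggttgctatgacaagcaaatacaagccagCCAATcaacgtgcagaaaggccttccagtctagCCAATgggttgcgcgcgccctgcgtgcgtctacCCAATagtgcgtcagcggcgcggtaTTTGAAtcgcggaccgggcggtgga
Kif4: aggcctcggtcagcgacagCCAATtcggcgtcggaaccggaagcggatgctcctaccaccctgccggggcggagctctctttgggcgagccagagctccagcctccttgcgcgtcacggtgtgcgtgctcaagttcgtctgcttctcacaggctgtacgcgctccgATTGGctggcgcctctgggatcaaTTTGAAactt
Hmmr: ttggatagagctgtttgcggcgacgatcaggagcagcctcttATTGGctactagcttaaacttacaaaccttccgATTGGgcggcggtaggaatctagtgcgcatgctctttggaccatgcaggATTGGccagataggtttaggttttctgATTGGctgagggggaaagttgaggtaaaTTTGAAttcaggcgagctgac
Nuf2: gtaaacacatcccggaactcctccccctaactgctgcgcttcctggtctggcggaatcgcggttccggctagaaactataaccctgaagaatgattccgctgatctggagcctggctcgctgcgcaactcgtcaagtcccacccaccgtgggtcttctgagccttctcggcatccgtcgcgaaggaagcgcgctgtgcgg
Pttg1: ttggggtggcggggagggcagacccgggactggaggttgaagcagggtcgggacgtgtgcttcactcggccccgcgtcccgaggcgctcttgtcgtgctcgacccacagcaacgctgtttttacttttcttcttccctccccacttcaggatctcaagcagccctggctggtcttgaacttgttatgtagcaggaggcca
Cdk1 shows 2 CHR and 2 CCAAT matches, Ccnb2 2 and 3, Kif4 1 and 2, and Hmmr 1 and 4. Of the 39 members, 27 had both kinds of match and 6 (Birc5, Mad2l1, Nuf2, Nusap1, Pttg1 and Tacc3) had no match of either kind in the whole window. The Pttg1 window (chr11:43425932-43426231) lies inside the gene as annotated in GENCODE (chr11:43420250-43426251). Bases upstream of that annotated gene were therefore not searched for Pttg1. Windows of Kif4, Kif2c, Cdca8 and Cenpm also lay inside their annotated genes, and each held a match of the CHR or its variant. Members with both kinds held a median of 88.7% of their reads in cells with 20 or more others (25.1% to 99.3%), and those with no match a median of 82.9% (8.36% to 99.1%). The ranges overlap widely, and Birc5 and Nuf2, with no match, held 99.1% and 96.8% of their reads in those cells.

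The 6 further lists of cell cycle genes differed in how far they followed the members in HI against LO cells, beside 2.94% of all genes large and higher and 1.59% meeting the size rule. Of 31 further kinetochore and centromere genes, 29 passed the level filter, with a median difference of 1.395 (0.99 and 1.58), and 18 were large and 10 met the size rule. Kntc1, a part of the checkpoint complex RZZ, was at 70.9 CPM in HI and 11.5 in LO cells, and Ska1 at 22.2 and 3.38, while the log2 differences of Dsn1 and Cenpc1 were 0.10 and 0.20. Of 26 further spindle and mitotic exit genes 22 passed, with a median of 1.81 (0.93 and 2.75), 13 large and 5 meeting the rule, led by Nek2, with 26.9 CPM in HI and 2.92 in LO cells, and Kif14, with 34.9 and 4.94. DNA replication genes had a median of 1.41 (1.53 and 1.39) over 30 of 32, with 23 large and 19 meeting the rule, led by Dscc1 at 2.67 and Mcm10 at 2.56. Subunits and regulators of condensin and cohesin were at 0.50 over 17, 6 large and 4 meeting the rule, with Ncapd2 at 2.12 and Nipbl at -0.26, and those of the anaphase-promoting complex at 0.19 over 16, 2 large and 0 meeting the rule, with Anapc15 at 1.77 and Anapc10 at -0.32. Transcription regulators of the cycle were at 0.55 over 22 of 23, 6 large and 2 meeting the rule, with E2f8 at 2.75 and Mybl2, which joins MuvB at CHR promoters, at 2.65, and E2f5 at -0.62. The stem cell markers were at -0.24 over 10, from Procr at -0.79 to Tek at 0.13. Without cell 58 the medians were 1.64, 2.74, 1.49, 0.58, 0.22 and 0.58 in the order of the 6 cell cycle lists, and -0.23 for the markers.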

How the data were processed

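Each sample is 1 index-sorted bone marrow cell, made into a library by a Smart-seq2 variant, per the labels' protocols. The authors deposited whole-number read counts, without molecular identifiers, as 2 tables of genes by cells. Per the submitters' processing notes the tools were DESeq2, featureCounts 2.0.0, Subread and STAR 2.7.3a, with the build mm10, and their roles are not given in the sources used here. Of all counted reads 23.6% lay in genes, 33.1% had no feature, 4.03% were ambiguous, 38.8% did not align and 0.433% were spike-ins, and rows naming no gene stayed out of totals. Gene names, lengths and overlaps came from GENCODE M21 (GRCm38).

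Kept cells had 50000 or more nuclear reads, 1000 or more genes, and no more than 20% mitochondrial reads. Counts were summed per group and table, scaled with TMM factors (edgeR 4.0.16, R 4.3.3) to CPM per 1000000 reads, and compared as log2 of CPM plus 1 within each table, then averaged. A median over members is taken over these averages. Composition factors were kept when single cells were left out. Thinning to 100000 reads used a fixed random seed. No doublets were called, since each sample is labelled as 1 cell. Other tools were pandas 2.3.3, matplotlib 3.10.9, SciPy 1.17.1 and NumPy 2.4.6 in Python 3.11.15, and the steps were tested on simulated data.

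No label names an animal, so groups were described and not tested. The members, the 9 other lists and the rules were chosen with earlier results of these data known. All members are accounted for, and of each other list up to 2 highest and 2 lowest genes by HI minus LO may be named; Hlf, Mecom, Slamf1, Mpo and Prss34, like single genes overlapping a member, were named after their values were seen. Alternatives were DESeq2 median-ratio factors (DESeq2 1.42.0), no composition factors, other pseudocounts, level filters and thinning depths, a mean of CPM per cell, and sets of cells left out.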

Additional observations from a re-analysis of the deposited data

How the results depend on the processing

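No paired analysis was possible because cell numbers only name cells and each group is 1 sample. No median over both tables changed sign under any alternative run. HI minus LO was 3.22 without cell 58, 3.41 without the 81 kept cells that held 3 or more mature blood cell markers (cell 58 held 3) and 3.44 without the 3 cells of each group and table with the most member reads, chosen after seeing the data. In the same order of settings LO minus young was -2.57, -2.95 and -2.16. Without the marker cells MID minus young was -2.02, and with the stricter level filter (50 CPM and 25% of cells, 17 members) -1.03. Without the 3 top cells of each group and table HI minus MID was 3.60, MID minus young -2.32 and HI minus young 1.27, and without the 3 top HI cells alone HI minus young was 0.068. Beside 23 members with all cells, the size rule was met by 9 under the stricter filter (9 of the 23), 7 without the marker cells (6), 10 without the 3 top HI cells (9) and 14 without the 3 top cells of each group (10). The cause was not tested.

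The share of cells with 8 or more members depended on depth and cut. For HI, MID, LO and young cells it was 79.8%, 60.4%, 61.03% and 76.1% unthinned, and 47.3%, 23.1%, 16.9% and 39.6% thinned to 50000 reads. With a cut of 5 members it was 87.8%, 77.95%, 80.5% and 85.2%, with 12 members 39.02%, 11.02%, 6.504% and 20.3%, and with 20 members 33.3%, 7.09%, 4.07% and 12.5%. Co-detection was 84.8% in HI cells alone. Of all alternatives 75 moved by less than the spread between tables or the counting interval and 37 by more. Some of the 75 could not move, so these counts do not measure how stable the results are. Every member passed the level filter, so dropping that filter changed no member median. Leaving out HI cells cannot change LO minus young or MID minus young. Leaving out cell 58 reaches comparisons without LO cells only through the scaling.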
